A study of Homo sapiens with 8 samples.

Results

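Keratins are the intermediate filament proteins of epithelial cells. A type II keratin, encoded on chromosome 12, pairs with a type I keratin, encoded on chromosome 17 except for KRT18, and the pairs assemble into filaments that brace the cytoplasm and anchor to desmosomes. Simple epithelia such as the luminal layer of the breast make KRT7, KRT8, KRT18 and KRT19, and the basal layer makes KRT5, KRT14, KRT15 and KRT17, so pathologists use these genes to tell luminal from basal breast tumours. The genes described here are all single-symbol probe sets (groups of short array probes named for exactly 1 gene) of a list of 9 keratins, namely KRT5, KRT7, KRT8, KRT14, KRT15, KRT17, KRT19, KRT80 and KRT81. KRT17 and KRT81 had no such probe set in the annotation used here and are not reported, which left 7 genes with 11 probe sets, of 19775 genes with 41091 probe sets in all.

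The 8 arrays fall into 4 groups of 2, named T47D shXBP1, T47D shCtrl, MDA-MB-231 shXBP1 and MDA-MB-231 shCtrl. T47D is a breast cancer line of the luminal class that responds to oestrogen. MDA-MB-231 is a breast cancer line that lacks hormone receptors and is mesenchymal in character. Cells carried a lentiviral hairpin against XBP1 (shXBP1) or a control hairpin (shCtrl), and every group, controls included, was kept in puromycin (2 ug/ml) after infection and spent 24 h at 0.1% O2 in glucose-free medium with serum. The XBP1 protein switches on genes that help the endoplasmic reticulum fold proteins, and the comparisons ask which transcripts depend on it under this stress. The labels name the hairpin only as shXBP1, so effects of its sequence on other transcripts cannot be told apart from those of losing XBP1, and cells outside the stress were not analysed here.

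All values are log2 expression values, and changes are log2 fold changes of shXBP1 over shCtrl with the standard error (SE) from limma, a linear model fitted to all 4 groups at once. A gene is called when its p, adjusted by Benjamini-Hochberg over all 19775 genes, is under 0.05. The files hold no detection calls, and 5.96, the median of all probe sets, is used as a mark for dim signals. The labels call the replicates biological without saying whether infections or cultures were separate, so p-values measure the spread between these arrays, which may be technical. XBP1 itself had levels of 7.52 and 7.16 on T47D shXBP1 arrays, against 12.41 and 12.56 on T47D shCtrl arrays, and of 7.13 and 6.69 on MDA-MB-231 shXBP1 arrays, against 10.83 and 10.69 on MDA-MB-231 shCtrl arrays. It fell by 5.15 in T47D and by 3.85 in MDA-MB-231, or by 2.69 and 1.83 when its 2 probe sets were averaged. The lines matched their labels: 4 of 12 luminal markers lay above the median of all probe sets in both MDA-MB-231 groups, against 12 of 12 in both T47D groups, while of 9 mesenchymal markers 8 did so in MDA-MB-231 shXBP1, 7 in MDA-MB-231 shCtrl and 4 in each T47D group. The mean level of 8 leukocyte markers stayed between 5.04 and 5.32 on all arrays. The log2 difference of the 3' and 5' control probe sets of ACTB, which grows as RNA breaks down, averaged 1.12 in T47D shXBP1 against 1.00 in T47D shCtrl, and 0.999 in MDA-MB-231 shXBP1 against 1.26 in MDA-MB-231 shCtrl. The same difference for GAPDH was 0.220 in T47D shXBP1 against 0.283 in T47D shCtrl, and 0.312 in MDA-MB-231 shXBP1 against 0.302 in MDA-MB-231 shCtrl. Their part in the keratin changes was not tested.

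With XBP1 knockdown, KRT7 and KRT8 fell in T47D and rose in MDA-MB-231. In T47D, 4 of the 7 keratin genes fell (KRT7, KRT8, KRT15 and KRT19), 1 rose (KRT80) and 2 were not called. Among all genes 29.1% were called in T47D, 13.5% lower and 15.5% higher. In MDA-MB-231, 4 of the 7 rose (KRT7, KRT8, KRT14 and KRT80) and 0 fell in limma, with 0 lower at an unadjusted p under 0.05, beside 17.2% of all genes called, 10.6% higher and 6.68% lower. The MDA-MB-231 count dropped from 4 genes to 1, KRT80, without shXBP1 replicate 1 or without shCtrl replicate 1. The median change of the 7 genes was -0.45 in T47D, against -0.02 over all genes, and 0.49 in MDA-MB-231, against 0.03 over all genes. The levels come from bulk RNA, in which fewer cells with a transcript and less of it in each cell cannot be told apart.

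**Figure D1:**
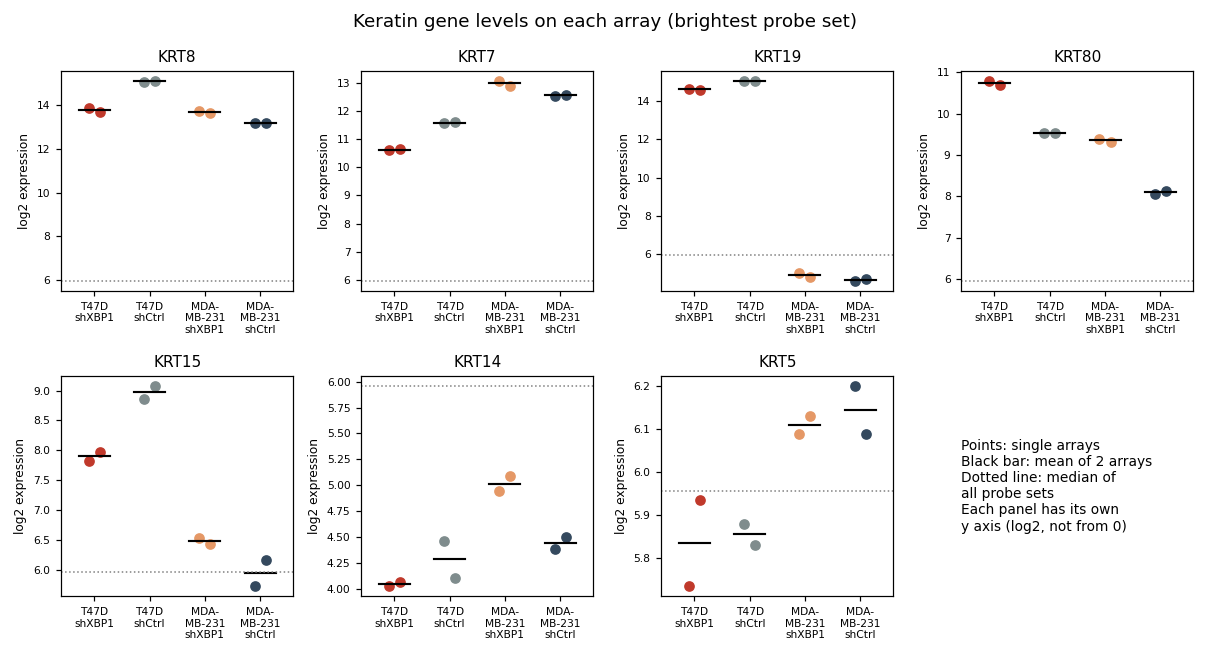
Log2 expression (y axis, its own scale in each panel) of 7 keratin genes at the brightest probe set, by group of cell line and hairpin (x axis). Points are single arrays, black bars are means of 2 arrays and the dotted line is the median of all probe sets (5.96). The shXBP1 points of KRT8 lie below the shCtrl points in T47D and above them in MDA-MB-231, those of KRT80 lie above in both lines, and the KRT19 points of MDA-MB-231 lie below the dotted line.

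KRT8 is the main type II keratin of simple epithelia. Its levels were 13.85 and 13.68 on T47D shXBP1 arrays, against 15.07 and 15.11 on T47D shCtrl arrays. In MDA-MB-231 they were 13.74 and 13.62 with shXBP1, against 13.19 and 13.19 with shCtrl. The arrays of the hairpins did not overlap in either line, and the shXBP1 arrays were low in T47D and high in MDA-MB-231. Here and below, non-overlap of 2 against 2 arrays says little by itself, and its share over all genes was not counted. The smallest p of an exact two-sided permutation test is 0.333. Some differences that were not called did not overlap either, namely KRT14 in T47D and KRT15, KRT18 and KRT19 in MDA-MB-231. KRT8 fell by 1.33 in T47D (SE 0.10, adjusted p = 7.43e-05), which is 2.51-fold, and rose by 0.49 in MDA-MB-231 (SE 0.10, adjusted p = 0.0117), which is 1.41-fold. The MDA-MB-231 call was lost without shCtrl replicate 1 (adjusted p = 0.0540) or without shXBP1 replicate 1 (0.0607). KRT8 is read by 209008_x_at, whose suffix marks probes that can also match related transcripts. Of the probe sets named for its pseudogene KRT8P12, the brighter read 7.78 and 7.75 on T47D shXBP1 arrays, against 8.32 and 8.85 on T47D shCtrl arrays, and 8.14 and 7.88 on MDA-MB-231 shXBP1 arrays, against 7.23 and 7.31 on MDA-MB-231 shCtrl arrays. The dimmer read 6.08 and 5.96 on T47D shXBP1 arrays, against 6.20 and 6.08 on T47D shCtrl arrays. On MDA-MB-231 arrays it read 6.23 and 6.20 with shXBP1, against 6.47 and 6.16 with shCtrl. The part of the pseudogene in the KRT8 values was not tested.

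KRT7, the type II keratin of glandular ducts, was also lower in T47D and higher in MDA-MB-231. It read 10.61 and 10.66 on T47D shXBP1 arrays, against 11.56 and 11.63 on T47D shCtrl arrays, and fell by 0.96 (SE 0.09, adjusted p = 0.000256), a 1.95-fold decrease. The MDA-MB-231 arrays read 13.08 and 12.90 with shXBP1, against 12.54 and 12.59 with shCtrl, and rose by 0.43 (SE 0.09, adjusted p = 0.0195), a 1.35-fold increase. Neither line had overlapping arrays. The MDA-MB-231 call disappeared on leaving out any of 3 arrays, shCtrl replicate 1 (adjusted p = 0.0890), shXBP1 replicate 1 (0.0830) or shCtrl replicate 2 (0.0553). It also disappeared with the MDA-MB-231 arrays alone (0.0824), and averaging the 4 probe sets gave 0.21 (0.253).

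KRT19 is the smallest keratin, a type I protein without the usual tail, and a common blood and lymph node marker of carcinoma cells. Its levels were 14.65 and 14.58 on T47D shXBP1 arrays, against 15.06 and 15.06 on T47D shCtrl arrays, with no overlap. The fall of 0.45 (SE 0.10, adjusted p = 0.0110), a 1.36-fold decrease, was the smallest of the called changes in T47D keratins. It did not stay called on leaving out T47D shXBP1 replicate 2 (adjusted p = 0.0787) or either T47D shCtrl array (0.0548 and 0.0521), or on averaging both probe sets (-0.25, 0.0936). In MDA-MB-231 KRT19 was below the median of all probe sets on all arrays, at 4.99 and 4.80 with shXBP1 against 4.59 and 4.70 with shCtrl. That difference of 0.25 was not called (adjusted p = 0.136), and passed under 1 of 15 alternatives, trend and robust fitting (0.0490).

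KRT18, the type I partner of KRT8, is not among the 9 genes but fell in T47D as KRT8 did. It read 14.54 and 14.58 on T47D shXBP1 arrays, against 15.35 and 15.37 on T47D shCtrl arrays, and fell by 0.80 (SE 0.08, adjusted p = 0.000300). In MDA-MB-231 it read 14.72 and 14.67 with shXBP1, against 14.41 and 14.45 with shCtrl, a difference of 0.26 (SE 0.08, adjusted p = 0.0649) that was not called, though it was under 3 of 15 alternatives. KRT8, KRT18 and KRT19 in T47D lie close to the highest deposited value of 15.61, and whether their signals were near saturation was not tested.

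**Figure D2:**
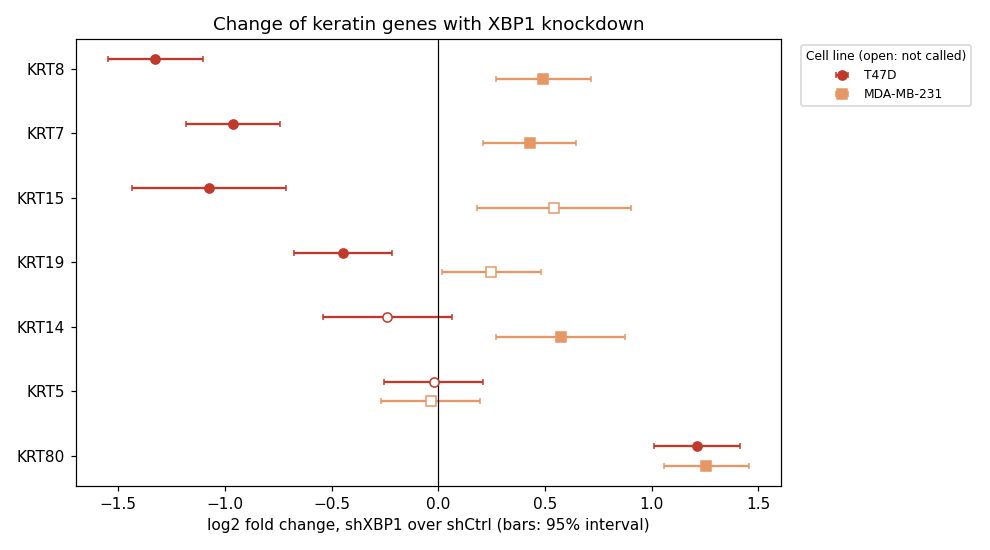
Log2 fold change of shXBP1 over shCtrl (x axis) for 7 keratin genes (y axis), with T47D as circles and MDA-MB-231 as squares. Bars are 95% intervals from limma, and open symbols were not called. KRT8, KRT7 and KRT15 lie at -1.33, -0.96 and -1.07 in T47D and at 0.49, 0.43 and 0.54 in MDA-MB-231, and KRT80 lies near 1.2 in both.

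Among the keratins of the basal layer, KRT15 was the only 1 of the 3 measured that was called in T47D. KRT15, a type I keratin of basal and stem-like epithelial cells, read 7.82 and 7.97 on T47D shXBP1 arrays, against 8.87 and 9.08 on T47D shCtrl arrays. It fell by 1.07 (SE 0.16, adjusted p = 0.00151), or 2.10-fold, without overlap. In MDA-MB-231 it lay near the median of all probe sets, at 6.54 and 6.44 with shXBP1 against 5.72 and 6.16 with shCtrl. That difference of 0.54 narrowly missed the threshold (SE 0.16, adjusted p = 0.0507) and was called under 5 of 15 alternatives, for instance without shCtrl replicate 2 (0.76, adjusted p = 0.0155).

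KRT14, the type I partner of KRT5 in basal cells, lay below the median of all probe sets on all 8 arrays. It read 4.03 and 4.07 with shXBP1 and 4.47 and 4.11 with shCtrl in T47D, a difference of -0.24 (adjusted p = 0.234). In MDA-MB-231 it read 4.94 and 5.09 with shXBP1, against 4.38 and 4.50 with shCtrl, and rose by 0.57 (SE 0.13, adjusted p = 0.0216). This call was lost without any 1 of the 4 MDA-MB-231 arrays (adjusted p between 0.0502 and 0.102), and the level was dim throughout.

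KRT5, the type II keratin of basal cells, was not called in either line. It read 5.74 and 5.94 on T47D shXBP1 arrays, against 5.88 and 5.83 on T47D shCtrl arrays, and 6.09 and 6.13 on MDA-MB-231 shXBP1 arrays, against 6.20 and 6.09 on MDA-MB-231 shCtrl arrays. The hairpins overlapped in both lines. The differences were -0.02 in T47D (95% interval -0.25 to 0.21) and -0.04 in MDA-MB-231 (95% interval -0.27 to 0.20), at signals near the median of all probe sets.

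The promoter table held 2 of the 9 genes, KRT8, which was called with knockdown in both lines, and KRT5, which was called in neither. The KRT5 signal lay near the median of all probe sets, so a change may have gone unseen. The 250 bases before each start that RefSeq lists (GRCh38.p14, minus strand) are shown 5′ to 3′, at chr12:52926470-52926719 for KRT8 and chr12:52520395-52520644 for KRT5. Capitals mark CACCC, the core that KLF factors bind, and CACCTG, the E-box bound by ZEB and SNAIL repressors, on either strand (GGGTG and CAGGTG when read from the other strand). The KRT8 start used by the table lies inside the span RefSeq gives the gene, not at its outer end, so other KRT8 starts are not covered.
KRT8: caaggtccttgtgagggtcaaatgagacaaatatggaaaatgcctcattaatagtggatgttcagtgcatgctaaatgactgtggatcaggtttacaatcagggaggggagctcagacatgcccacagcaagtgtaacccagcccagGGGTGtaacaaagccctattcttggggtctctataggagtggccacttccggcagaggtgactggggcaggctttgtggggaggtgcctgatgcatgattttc
KRT5: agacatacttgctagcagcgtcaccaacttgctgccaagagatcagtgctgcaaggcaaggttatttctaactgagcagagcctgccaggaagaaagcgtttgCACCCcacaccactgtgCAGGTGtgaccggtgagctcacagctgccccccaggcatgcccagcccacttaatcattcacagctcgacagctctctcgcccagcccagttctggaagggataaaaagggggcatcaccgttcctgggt

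Each window held 1 CACCC match, at 103 bases before the start in KRT8 and 147 in KRT5, and 54.7% of all 35116 promoter windows of this length held at least 1. The E-box CACCTG had 1 match in KRT5, at 130 bases before the start, and in 17.5% of all windows. Searched on both strands, the ACGT core bound by XBP1 and the CCACG piece of the ER stress element were in neither window, and occurred in 29.3% and 33.5% of all windows. The same held for the GC box GGGCGG of the factor SP1, which 42.6% of all windows held, and for the core promoter element TATAAA, which 10.7% of them held. Also absent were the site AGATAA of GATA factors, present in 9.17% of all windows, and the site TGANTCA of the AP-1 factors, present in 6.57% of them. No marked match overlapped another. KRT8 had 1 CpG and a GC content of 50.4%, and KRT5 had 6 CpGs and 56.0%.

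KRT80, a type II keratin of differentiated epithelial cells that lies close to cell junctions, was the only 1 of the 7 genes called higher with shXBP1 in both lines. It read 10.79 and 10.70 on T47D shXBP1 arrays, against 9.52 and 9.54 on T47D shCtrl arrays. In MDA-MB-231 it read 9.38 and 9.32 with shXBP1, against 8.06 and 8.13 with shCtrl. No arrays overlapped within a line. The rises were 1.21 in T47D (SE 0.09, adjusted p = 7.24e-05), or 2.32-fold, and 1.26 in MDA-MB-231 (SE 0.09, adjusted p = 0.000198), or 2.39-fold. They differed by 0.04 (95% interval -0.24 to 0.33, adjusted p = 0.840). Of all genes 3.32% were called higher in both lines. Both KRT80 calls held under all 15 alternatives run.

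The difference between the lines was tested as the MDA-MB-231 change minus the T47D change. It was called for 5 of the 7 genes, all towards MDA-MB-231, beside 24.8% of all genes called, 13% in that direction and 11.8% in the other. KRT8 had the widest gap at 1.82 (SE 0.14, adjusted p = 0.000220), then KRT15 at 1.62 (SE 0.22, adjusted p = 0.00175) and KRT7 at 1.39 (SE 0.13, adjusted p = 0.000471). The calls of these 3 genes held under all 14 alternatives that gave a value, the KRT7 gap being 0.89 when its probe sets were averaged. KRT14 differed by 0.81 (adjusted p = 0.0155), which was lost without T47D shXBP1 replicate 1 (0.79, adjusted p = 0.0578), and KRT19 by 0.70 (adjusted p = 0.00932), which was lost on averaging its probe sets (0.28, adjusted p = 0.184). KRT5 and KRT80 were not called. KRT7 and KRT8 were called lower in T47D and higher in MDA-MB-231, a combination found in 1.71% of all genes. It rests on MDA-MB-231 calls that were lost under 6 of 15 alternatives for KRT7 and 2 of 15 for KRT8.

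The keratins also differed between the lines with the control hairpin. With the control hairpin, MDA-MB-231 was lower than T47D in 4 of the 7 genes and higher in 2, beside 49% of all genes called, 25.2% lower and 23.7% higher. KRT19 was lower by 10.41 on the log2 scale (SE 0.10, adjusted p = 4.98e-09), or by 5.33 when its 2 probe sets were averaged, and its MDA-MB-231 signal is dim. KRT15 was lower by 3.03, KRT8 by 1.90 and KRT80 by 1.44. KRT7 went the other way at 0.97 (SE 0.09, adjusted p = 5.67e-05), and KRT5 was higher by 0.29 (adjusted p = 0.0433), a call lost under 11 of 15 alternatives. KRT14 was at 0.15 and was not called.

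After knockdown 3 of the 7 genes were lower in MDA-MB-231 than in T47D and 2 were higher, beside 50.8% of all genes called, 25% lower and 25.9% higher. The KRT8 levels of the lines lay together. MDA-MB-231 shXBP1 arrays averaged 13.68 ± 0.08 and T47D shXBP1 arrays 13.76 ± 0.12 (SD, n = 2 each), a difference of -0.08 (95% interval -0.30 to 0.14, adjusted p = 0.542), against -1.90 with the control hairpin. For KRT7 the gap was wider at the brightest probe set: MDA-MB-231 shXBP1 was higher than T47D shXBP1 by 2.36 (SE 0.09, adjusted p = 4.22e-07), or 5.12-fold, and by 0.66 when its probe sets were averaged. KRT15 was lower in MDA-MB-231 by 1.41, KRT19 by 9.72 (5.05 on averaging) and KRT80 by 1.39. KRT14 was higher by 0.97 (SE 0.13, adjusted p = 0.000354) at dim levels.

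The probe sets of KRT7 and KRT19 did not all read alike. KRT7 had 4. Beside the brightest, 209016_s_at, the probe set 1558394_s_at read 5.79 and 5.58 on T47D shXBP1 arrays, against 6.89 and 7.44 on T47D shCtrl arrays, and 5.25 and 4.86 on MDA-MB-231 shXBP1 arrays, against 4.48 and 4.65 on MDA-MB-231 shCtrl arrays. In a fit of all 41091 probe sets it fell by 1.48 in T47D (SE 0.20, adjusted p = 0.00120) and had a difference of 0.49 in MDA-MB-231 (adjusted p = 0.152). In the order of the lines it was opposite to the brightest probe set. With the control hairpin it was lower in MDA-MB-231 by 2.60 (adjusted p = 1.26e-05, SE 0.20), whereas the brightest was higher by 0.97. With the XBP1 hairpin it was lower in MDA-MB-231 by 0.63 (adjusted p = 0.0329), a narrower gap, where the gap of the brightest was wider. Averaging the 4 probe sets put KRT7 at -0.22 between the control lines (adjusted p = 0.146). The other KRT7 probe sets, 1558393_at and 214031_s_at, ranged from 6.54 to 7.22 and from 4.81 to 5.81 over the 8 arrays and were not called in either knockdown comparison.

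KRT19 had a second probe set, 228491_at, that stayed between 4.83 and 5.39 on all 8 arrays, T47D included, and was not called with knockdown. Of the 11 probe sets taken singly, 5 fell and 1 rose in T47D, beside 24.3% of all probe sets called, and 4 rose in MDA-MB-231, beside 15.8%. In MDA-MB-231 0 fell in limma, also at an unadjusted p under 0.05.

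**Figure D3:**
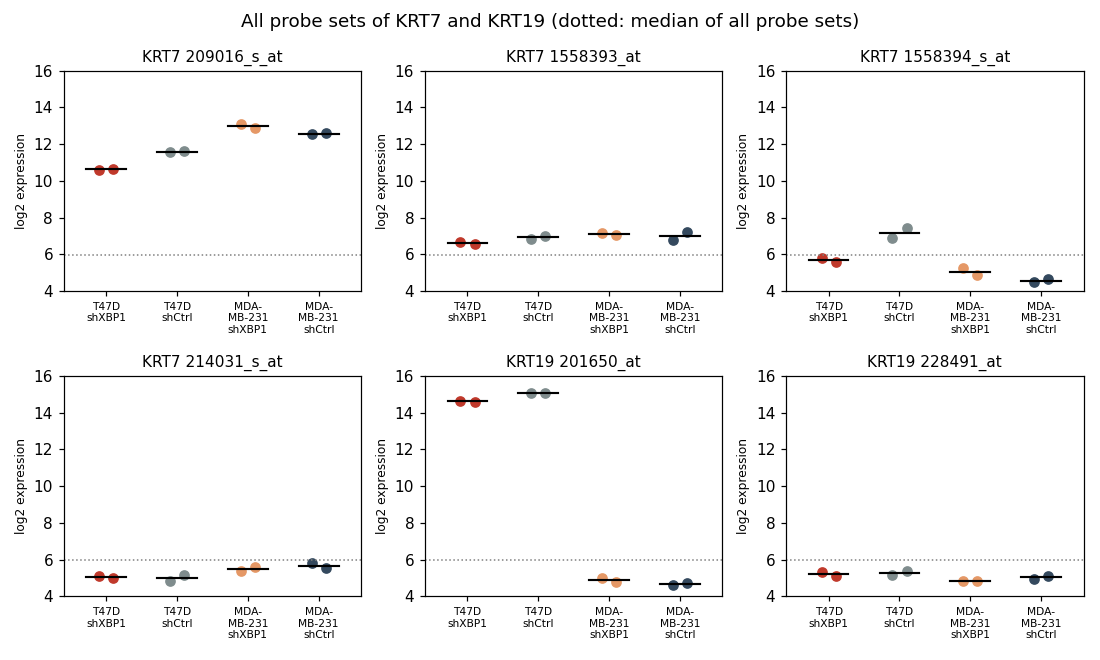
Log2 expression (y axis, shared scale) of the 4 KRT7 and 2 KRT19 probe sets by group (x axis), with single arrays as points, the mean of 2 arrays as a black bar and the median of all probe sets as a dotted line. 209016_s_at is highest in MDA-MB-231 and 1558394_s_at in T47D shCtrl, and the second KRT19 probe set lies below the dotted line in every group.

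The rest of the keratin family was mostly dim on these arrays. Of 46 other keratin genes listed, 37 had a probe set and 10 had a mean above the median of all probe sets. In T47D 7 of the 37 fell and 0 rose in limma (1 higher at an unadjusted p under 0.05), with a median change of -0.05, beside 13.5% of all genes lower and 15.5% higher. KRT13, a type I keratin of moist stratified epithelia, had 4.99 and 4.88 on T47D shXBP1 arrays, against 7.15 and 7.20 on T47D shCtrl arrays, and fell by 2.24 (SE 0.16, adjusted p = 7.31e-05). KRT4, its type II partner, fell by 1.98 (SE 0.22, adjusted p = 0.000459), against -0.94 when its probe sets were averaged. KRT23 fell by 1.03 and KRT20, a keratin of gut epithelium that was dim here, by 0.96.

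In MDA-MB-231 1 of the 37 rose, KRT9, by 0.39 (SE 0.09, adjusted p = 0.0231), a call lost under 7 of 15 alternatives, and 0 fell in limma (1 at an unadjusted p under 0.05), beside 10.6% of all genes higher and 6.68% lower. The knockdown effects of the lines differed for 5 of the 37, all towards MDA-MB-231, namely KRT13 (2.23), KRT4 (2.19), KRT20 (1.20), KRT23 (1.16) and KRT18 (1.06). That share is near the 13% of all genes called in that direction. KRT13, KRT4, KRT20 and KRT23 were dim in MDA-MB-231, where group means at the brightest probe set lay between 3.67 and 5.73. A fall in that line may have gone unseen, and none of these 4 genes was called there.

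**Figure D4:**
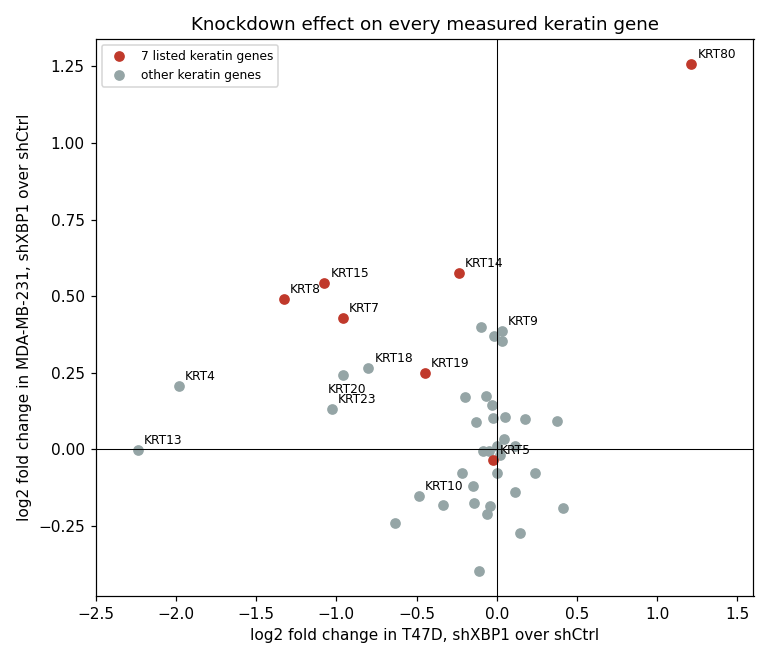
Log2 fold change of shXBP1 over shCtrl in T47D (x axis) and in MDA-MB-231 (y axis) for the 7 listed keratin genes (red) and 37 other keratin genes (grey), each point 1 gene. KRT80 stands at upper right (1.21 and 1.26), KRT8, KRT7 and KRT15 at upper left, and KRT13 and KRT4 at far left, near 0 for MDA-MB-231.

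Genes that tie keratins to junctions were called about as often as all genes, of which 29.1% were called in T47D and 17.2% in MDA-MB-231. Of 23 measured genes of desmosomes, hemidesmosomes and keratin linkers, 4 rose and 3 fell in T47D (median 0.11), and 4 rose and 0 fell in MDA-MB-231 in limma (0 fell at an unadjusted p under 0.05; median 0.17). PKP2, a plakophilin that links desmosomal cadherins to keratin filaments through desmoplakin, had 8.97 and 9.12 on T47D shXBP1 arrays, against 7.45 and 7.23 on T47D shCtrl arrays. It rose by 1.71 in T47D (SE 0.11, adjusted p = 6.03e-05) and by 0.89 in MDA-MB-231 (SE 0.11, adjusted p = 0.00210), against 0.76 and 0.48 when its probe sets were averaged. PPL, the linker periplakin, rose by 0.68 in T47D and by 0.37 in MDA-MB-231 (adjusted p = 0.0229), the latter call lost under 7 of 15 alternatives. The desmosomal cadherin gene DSC2 rose by 0.89 (0.58 when averaged) in T47D. LAMB3, a chain of the laminin under hemidesmosomes, rose by 2.09 (SE 0.22, adjusted p = 0.000886) and ITGA6, their integrin subunit, by 0.76 in MDA-MB-231. ITGB4, the partner of ITGA6, fell by 0.68 in T47D (adjusted p = 0.00825), a call lost on averaging its probe sets (-0.26, adjusted p = 0.141) and without shXBP1 replicate 1 (0.0595) or shCtrl replicate 2 (0.0571).

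Markers of cell identity are given beside the keratins. In T47D 5 of 12 luminal markers rose and 1 fell, beside 15.5% of all genes higher and 13.5% lower, and their mean level on an array was 12.38 to 12.41 with shXBP1 and 12.17 to 12.19 with shCtrl. The 8 measured basal or myoepithelial markers, none of them a keratin and 1 of them ITGB4, held 5 that fell and 0 that rose in limma (0 rose at an unadjusted p under 0.05), with a mean level of 6.96 to 6.99 with shXBP1 and 7.39 to 7.50 with shCtrl. In MDA-MB-231 2 of 12 luminal markers rose and 1 fell, and 3 of 9 mesenchymal markers rose and 1 fell, beside 10.6% of all genes higher and 6.68% lower. The part of these shifts in the keratin changes was not tested.

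Epithelial transcription factors showed no common direction with knockdown. Of 17 measured, 4 rose and 2 fell in T47D (median 0.09), and 3 rose and 2 fell in MDA-MB-231 (median 0.03). Of all genes, 29.1% were called in T47D and 17.2% in MDA-MB-231. KLF4 rose by 2.01 in T47D (SE 0.10, adjusted p = 2.08e-05) and by 0.37 in MDA-MB-231 (adjusted p = 0.0446). The MDA-MB-231 call of KLF4 was lost under 12 of 15 alternatives. KLF5, which drives epithelial growth, rose by 1.38 in T47D (SE 0.13, adjusted p = 0.000197) and fell by 0.99 in MDA-MB-231 (SE 0.13, adjusted p = 0.00210), opposite to KRT7 and KRT8 in each line. TFAP2A, an AP-2 factor, fell by 0.73 in T47D (SE 0.12, adjusted p = 0.00225) and by 0.53 in MDA-MB-231 (adjusted p = 0.0176). The MDA-MB-231 call of TFAP2A was lost under 4 of 15 alternatives. ELF3, an ETS factor of epithelial differentiation, rose by 1.24 in MDA-MB-231 (SE 0.13, adjusted p = 0.000848). GATA3, the luminal regulator, and GRHL2, a guardian of epithelial junctions, were at -0.03 and -0.08 in T47D and were not called.

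Between the control lines, MDA-MB-231 was lower than T47D in 14 of 17 epithelial factors and higher in 2 (median -3.44), with GATA3 lower by 9.51 and GRHL2 by 5.40. Of all genes 25.2% were lower and 23.7% higher in this comparison. Of 6 repressors of the epithelial state, 4 were higher in MDA-MB-231 and 1 lower, with ZEB1, which silences epithelial genes, at 6.35 (3.78 when its probe sets were averaged) and SNAI2 at 8.65. With knockdown, 1 of these 6 fell in T47D, ZEB1, at a level of 3.19 and 3.24 with shXBP1 against 3.54 and 3.72 with shCtrl, far below the median of all probe sets. Without shXBP1 replicate 1 or 2 or without shCtrl replicate 2 the ZEB1 call was lost (adjusted p = 0.117, 0.0824 and 0.128), and averaging its probe sets gave -0.03 (0.922). In MDA-MB-231 1 rose, SNAI1, by 1.83 (SE 0.20, adjusted p = 0.00107). Of all genes, 13.5% fell and 15.5% rose with knockdown in T47D, and 6.68% fell and 10.6% rose in MDA-MB-231.

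The mesenchymal filament gene VIM set the lines apart without a called knockdown effect. Its levels were 14.65 and 14.67 on MDA-MB-231 shXBP1 arrays, against 14.30 and 14.35 on MDA-MB-231 shCtrl arrays, and 6.78 and 6.88 on T47D shXBP1 arrays, against 6.30 and 6.84 on T47D shCtrl arrays. The changes were 0.33 in MDA-MB-231 (adjusted p = 0.226) and 0.26 in T47D (adjusted p = 0.301). VIM was called in MDA-MB-231 when its probe sets were averaged (1.00, adjusted p = 0.00887), and in T47D without shCtrl replicate 2 (0.53, adjusted p = 0.0166). Of 15 intermediate filament genes that are not keratins, VIM among them, 6 fell and 1 rose in T47D (median -0.14). In MDA-MB-231 3 rose and 0 fell in limma (median 0.22), with 0 lower at an unadjusted p under 0.05. Of all genes 29.1% were called in T47D and 17.2% in MDA-MB-231. LMNA, of the nuclear lamina, fell by 0.47 in T47D (SE 0.10, adjusted p = 0.0111) and rose by 0.40 in MDA-MB-231 (adjusted p = 0.0376), a call lost under 9 of 15 alternatives.

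Of 16 genes of stratified epithelial differentiation, 3 rose and 3 fell in T47D (median 0.10), and 2 rose and 0 fell in MDA-MB-231 in limma (0 fell at an unadjusted p under 0.05; median 0.08), where 29.1% and 17.2% of all genes were called. S100A8, a calcium-binding protein of stressed keratinocytes, fell by 1.27 in T47D (SE 0.20, adjusted p = 0.00218) and rose by 1.20 in MDA-MB-231 (SE 0.20, adjusted p = 0.00572), against -0.74 and 0.63 when its probe sets were averaged. In MDA-MB-231 it was dim on all arrays, at 5.89 and 5.65 with shXBP1 against 4.39 and 4.75 with shCtrl. SFN, a 14-3-3 protein that binds keratins, rose in both lines, by 0.79 in T47D (adjusted p = 0.000345) and by 0.70 in MDA-MB-231 (adjusted p = 0.00146).

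The 3 keratin genes with the widest range over the group means were KRT19, KRT15 and KRT80. For each, the 3 most similar genes were those with the smallest root mean square difference over the 8 arrays, after each gene was centred on its own mean. For KRT19, whose pattern is nearly all difference between the lines, these were CDH1 (0.41), which encodes E-cadherin, GATA3 (0.47) and the long noncoding RNA gene DSCAM-AS1 (0.59). For KRT15 they were UBL3 (0.13), CTSD (0.14), the lysosomal protease cathepsin D, and RAC2 (0.16). For KRT80 they were the phosphatase gene PHLPP2 (0.09), TWNK (0.15), the mitochondrial DNA helicase, and OSR2 (0.16). PHLPP2 read 9.18 and 9.13 on T47D shXBP1 arrays, against 7.87 and 7.80 on T47D shCtrl arrays, and 7.63 and 7.83 on MDA-MB-231 shXBP1 arrays, against 6.30 and 6.55 on MDA-MB-231 shCtrl arrays. The 8 arrays form only 4 groups.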

How the data were processed

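RNA was measured on 8 one-colour Affymetrix arrays, 2 per group. The authors deposited log2 values per probe set, made with RMA in the affy package, version 1.30.0, per the submitters' processing notes. RMA corrects background, normalizes by quantiles and compresses folds at dim levels. The sources used here do not give the set of arrays that went into the normalization. Values (2.75 to 15.61) were used as deposited, for 54675 probe sets. Probe sets took gene symbols from the platform annotation, and each gene used its brightest single-symbol probe set, with no filter on dim genes (6 of the 7 keratin genes have a mean above the median of all probe sets).

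Group means were fitted with limma 3.58.1 in R 4.3.3 on all 8 arrays, with 4 residual degrees of freedom (7.61 after moderation), two-sided tests and Benjamini-Hochberg adjustment. With 2 arrays a group, the smallest p of an exact two-sided permutation test is 0.333. The fit was tested on simulated data with independent noise on each array. Such a test cannot show how calls would hold if replicates were technical. The number of arrays limits precision. Named genes were the keratin genes, XBP1, KRT18, VIM, GRHL2, GATA3, ZEB1 and, per list and comparison, up to 4 called members with the largest changes, of which part is given. TP63 had no single-symbol probe set here. Members and lists were chosen with earlier results of these data known. The alternatives were other gene summaries, a dim filter, renewed quantile normalization, trend and robust fitting, a replicate block, fewer arrays and leaving out each array. The annotation may be old. Promoter sequences come from RefSeq (GRCh38.p14).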

Additional observations from a re-analysis of the deposited data

Results flagged for a closer look

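The change with XBP1 knockdown differed between the lines, by the test of the MDA-MB-231 change minus the T47D change, for 5 of the 7 keratin genes: by 1.82 for KRT8, 1.62 for KRT15, 1.39 for KRT7, 0.81 for KRT14 and 0.70 for KRT19, all on the log2 scale. Of all genes 24.8% were called in this test, 13% towards MDA-MB-231. KRT14 and KRT19 were dim in MDA-MB-231, and their calls did not hold under all 14 alternatives. Among keratins outside the list the change with knockdown differed by 2.23 for KRT13, 2.19 for KRT4, 1.20 for KRT20, 1.16 for KRT23 and 1.06 for KRT18. KRT13, KRT4, KRT20 and KRT23 were dim in MDA-MB-231, so a fall there may have gone unseen. XBP1 differed by 1.30, its fall being smaller in MDA-MB-231 (-3.85, against -5.15 in T47D). Averaging its probe sets gave a difference of 0.86 (-1.83 in MDA-MB-231, against -2.69 in T47D).

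Among genes of junctions and other filaments, the difference was 2.33 for LAMB3, 1.01 for ITGB4, 0.92 for ITGA6, 0.87 for LMNA, 1.90 for BFSP2, 1.44 for PRPH and 1.29 for BFSP1, and it was -0.81 for PKP2, -0.76 for DSC2 and -0.93 for SYNM (-0.16 in MDA-MB-231 and 0.77 in T47D). Among epithelial factors and repressors it was 1.15 for ELF3 and 1.83 for SNAI1, and -2.36 for KLF5, -1.64 for KLF4 and -1.01 for GRHL3. Among genes of stratified differentiation it was 2.46 for S100A8, 1.64 for S100A9 and -1.24 for CSTA. S100A8, CSTA, GRHL3, BFSP1 and BFSP2 were dim in MDA-MB-231. Adjusted p-values of these differences in limma lay between 0.000220 (KRT8) and 0.0155 (KRT14).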

How the results depend on the processing

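The number of keratin genes called was within 1.5 times of the reported count under every alternative for T47D, for the difference of the lines and for both comparisons of the lines, except when a change of at least 1 on the log2 scale was also asked for, which was chosen after seeing the data. That left 3 keratin genes of 1235 genes in T47D and 1 of 510 in MDA-MB-231. Leaving out each array gave 1 to 4 keratin genes and 2063 to 2931 genes in all in MDA-MB-231. The count of 1 came without shCtrl replicate 1 or shXBP1 replicate 1, where KRT80 alone was called. With only the 4 MDA-MB-231 arrays 1897 genes were called. KRT7 between the control lines turned to -0.22 with the mean over probe sets.

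The differences between same-hairpin replicates were nearly uncorrelated across genes between the hairpins of a line (correlation 0.0022 in T47D and -0.069 in MDA-MB-231). This cannot tell whether same-numbered samples shared an infection or a culture. The fit with the replicate block called 4997 genes in T47D and 2416 in MDA-MB-231, and 5 and 3 keratin genes, KRT7 being the gene not called in MDA-MB-231 (adjusted p = 0.0571). ZEB1 in T47D and KRT5 between the control lines were not called with it either (0.0501 and 0.0650). Signal over background is unknown, so changes at dim levels (KRT14, KRT5, and KRT19 in MDA-MB-231) may be understated or may be background alone.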
